A study of Homo sapiens with 6 samples.

Results

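The BCL2 family of cell death regulators was followed in JJN3, a human cell line established from a patient with plasma cell malignancy and labelled as multiple myeloma. The 10 members, of 60728 genes in the count table, were chosen by name and function, by a rule that uses no measured value, but with earlier results of these data known. They are the pro-survival genes BCL2, MCL1 and BCL2L1 (BCL-xL), the BH3-only genes BCL2L11 (BIM), BBC3 (PUMA), BMF, PMAIP1 (NOXA) and BID, and the effector genes BAX and BAK1. Bulk RNA-seq had been made from wild-type JJN3 cultures in 3 groups of 2 libraries, namely a DMSO vehicle control and exposures of 2 h and of 6 h to WNK463. This compound blocks the catalytic activity of WNK kinases, enzymes that regulate ion transport and cell volume. The labels give its dose as 5 μM in the sample protocol and as 1 μM in the series design, and the discrepancy could not be settled here. The DMSO libraries stand as A0 and B0 in the count table, but the labels state no hour of collection for them. A single DMSO group cannot match both treatment times. Hours in culture and exposure to WNK463 therefore cannot be told apart in the comparisons with DMSO, nor between 6 h and 2 h. The line is a single established cell line, and no label says whether the 2 libraries of a group came from separate cultures. The p-values therefore weigh changes against a spread between these libraries, estimated largely across genes, which may be technical.

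Proteins of this family decide whether the mitochondrial outer membrane is breached during the intrinsic pathway of apoptosis. BAX and BAK1 form pores in the membrane, the pro-survival proteins bind and restrain them, and the BH3-only proteins either occupy the pro-survival proteins or activate BAX and BAK1 directly. Plasma cells and myeloma cells are known for their dependence on MCL1, and many myelomas also express BCL2 and BCL-xL. The family is controlled to a large extent by protein stability and binding, which RNA levels do not measure. Gene-level counts also cannot separate isoforms, and both MCL1 and BCL2L1 are known to be spliced into isoforms with opposite effects on survival.

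The members are given by their position in hg38, from the gene models of the count table. BCL2 spans chr18:63123346-63320128 (minus strand), MCL1 chr1:150574551-150579738 (minus) and BCL2L1 chr20:31664452-31723989 (minus). Among the BH3-only genes, BCL2L11 spans chr2:111119378-111168445 (plus), BBC3 chr19:47220822-47232766 (minus), BMF chr15:40087890-40108892 (minus), PMAIP1 chr18:59899996-59904305 (plus) and BID chr22:17734138-17774770 (minus). The effectors are BAX at chr19:48954815-48961798 (plus) and BAK1 at chr6:33572547-33580293 (minus).

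The sequence just upstream of a start site is shown for 4 members: BBC3 and BMF gave the largest rises, BCL2L11 is a textbook target of forkhead factors, and BAX fell. The stretches come from RefSeq on GRCh38.p14 and are the parts of the 250 bases before a start site that lie outside annotated exons, written 5′ to 3′ on the strand of the gene. They are chr19:47232767-47232917 for BBC3 (minus strand, 151 bases), chr15:40108893-40109129 for BMF (minus, 237 bases), chr2:111120664-111120913 for BCL2L11 (plus, 250 bases) and chr19:48954625-48954814 for BAX (plus, 190 bases). The BCL2L11 stretch precedes a RefSeq start site at position 111120914 and lies within the gene span given above. The stretches of BBC3, BMF and BAX lie outside the spans of those genes. Capitals mark matches to a motif on either strand: the E-box CACGTG in BBC3 and BAX, the cAMP response element core TGACG in BMF and BAX, and the forkhead core TGTTTAC, read on the opposite strand as GTAAACA, in BCL2L11.
BBC3: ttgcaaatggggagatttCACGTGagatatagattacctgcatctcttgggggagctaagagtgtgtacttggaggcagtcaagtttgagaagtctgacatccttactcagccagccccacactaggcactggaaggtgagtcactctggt
BMF: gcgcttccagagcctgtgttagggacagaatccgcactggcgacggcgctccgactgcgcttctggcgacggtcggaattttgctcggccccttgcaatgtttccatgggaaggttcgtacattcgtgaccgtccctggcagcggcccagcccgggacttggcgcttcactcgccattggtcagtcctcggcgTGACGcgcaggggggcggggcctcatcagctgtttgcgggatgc
BCL2L11: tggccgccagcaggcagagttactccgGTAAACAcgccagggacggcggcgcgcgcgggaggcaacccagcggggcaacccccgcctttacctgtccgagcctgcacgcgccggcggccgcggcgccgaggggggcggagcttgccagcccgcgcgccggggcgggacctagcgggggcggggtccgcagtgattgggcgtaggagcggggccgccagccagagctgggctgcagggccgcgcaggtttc
BAX: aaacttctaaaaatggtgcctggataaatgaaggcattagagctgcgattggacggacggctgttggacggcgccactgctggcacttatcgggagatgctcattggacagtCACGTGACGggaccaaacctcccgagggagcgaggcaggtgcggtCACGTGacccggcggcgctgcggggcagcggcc

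In the BAX stretch the TGACG match overlaps the first of its 2 E-boxes, so those letters are shared. The whole 250-base window of BAX held 4 E-boxes, a number reached or passed by 5 of the 35116 RefSeq windows of that length. That cut is the count of BAX itself, whose window is 1 of the 5. The rarity thus describes a motif and a member picked from several and is no test. Promoter windows were found for 9 of the 10 members, 15 windows in all. MCL1 was not among them. An E-box stood in 4 of the 15 windows (BBC3, BAX and 2 start sites of BID), against 6.34% of all windows. The 2 BID windows overlap and hold the same E-box, so this site is counted more than once. TGACG stood in 5 (BMF, PMAIP1, BCL2, BCL2L1 and BAX), against 21.2%, and the forkhead core in 1 (BCL2L11), against 2.98%. The composite element bound by CHOP and ATF4, TGATGNAA, matched no member window and 3.14% of all windows. A match describes letters in these windows and is not evidence of a bound site, and windows of 1 gene share sequence.

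All 10 members passed the filter on low counts and were tested among 15548 genes. Library totals ran from 18013790 to 24002291 counted fragments, and a count of 3 corresponded to 0.125 to 0.167 CPM (counts scaled to library size), well under the lowest member. The plasma cell markers SDC1, CD38, TNFRSF17, XBP1, PRDM1, IRF4, SLAMF7, JCHAIN and MZB1 were all detected and summed to 1825 to 1900 CPM in every library, although single markers moved: 3 of 9 were called higher and 1 lower at 2 h, and 3 higher and 3 lower at 6 h. PRDM1 averaged 276 CPM with DMSO and 370 CPM at 6 h, IRF4 702 and 580 CPM, and XBP1 257 and 205 CPM. T cell, myeloid and erythroid markers summed to at most 4.69 CPM, with 2 of 6 T cell genes (CD3D and CD3G) and 2 of 5 erythroid genes (HBB among them) at 0 throughout. Epithelial markers summed to 102 to 103 CPM with DMSO and 122 to 129 with WNK463, mostly from EPCAM (91.0 CPM with DMSO and 104 CPM at 6 h). CDH1 averaged 4.93 CPM with DMSO and 10.4 CPM at 6 h, and KRT18 5.82 and 7.73 CPM. The part of these markers in the results was not tested. In bulk libraries, fewer cells expressing a gene and less RNA per cell cannot be told apart.

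By length-normalised level (TPM, the count per base of exon scaled to the same total in each library, mean ± SD, n = 2), MCL1 was far above the other members in DMSO cells, at 472 ± 3.93. BAK1 followed at 189 ± 19.6 and BCL2L11 at 90.0 ± 4.01. BAX (53.0 ± 3.62), BCL2 (52.2 ± 2.42), BID (48.2 ± 1.93) and PMAIP1 (46.1 ± 4.05) came next. The ranges of BAX and BCL2 overlapped, as did those of BID and PMAIP1. BMF (24.3 ± 1.28), BCL2L1 (14.8 ± 1.04) and BBC3 (5.60 ± 1.78) were the lowest, with no overlap between neighbours. The BCL2L1 level is understated, since 43.0% of its exonic length is shared with the antisense gene ABALON and unstranded fragments there are counted for neither gene. Per unshared length it averaged 25.9 TPM, close to the 26.6 TPM of BMF on that scale. At 6 h the order was MCL1 (599 ± 19.9), BAK1 (161 ± 4.94), BCL2L11 (122 ± 0.23), BCL2 (72.8 ± 2.60), BMF (71.6 ± 0.69), PMAIP1 (42.5 ± 2.23), BAX (41.8 ± 1.25), BID (34.9 ± 3.40), BCL2L1 (23.5 ± 2.00) and BBC3 (14.8 ± 1.70). BMF had moved up to overlap BCL2, and PMAIP1 overlapped BAX. The place of BCL2L1 depends on the length used: per unshared length it averaged 41.2 TPM at 6 h, above BID (34.9 TPM) and close to BAX (41.8 TPM).

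**Figure D1:**
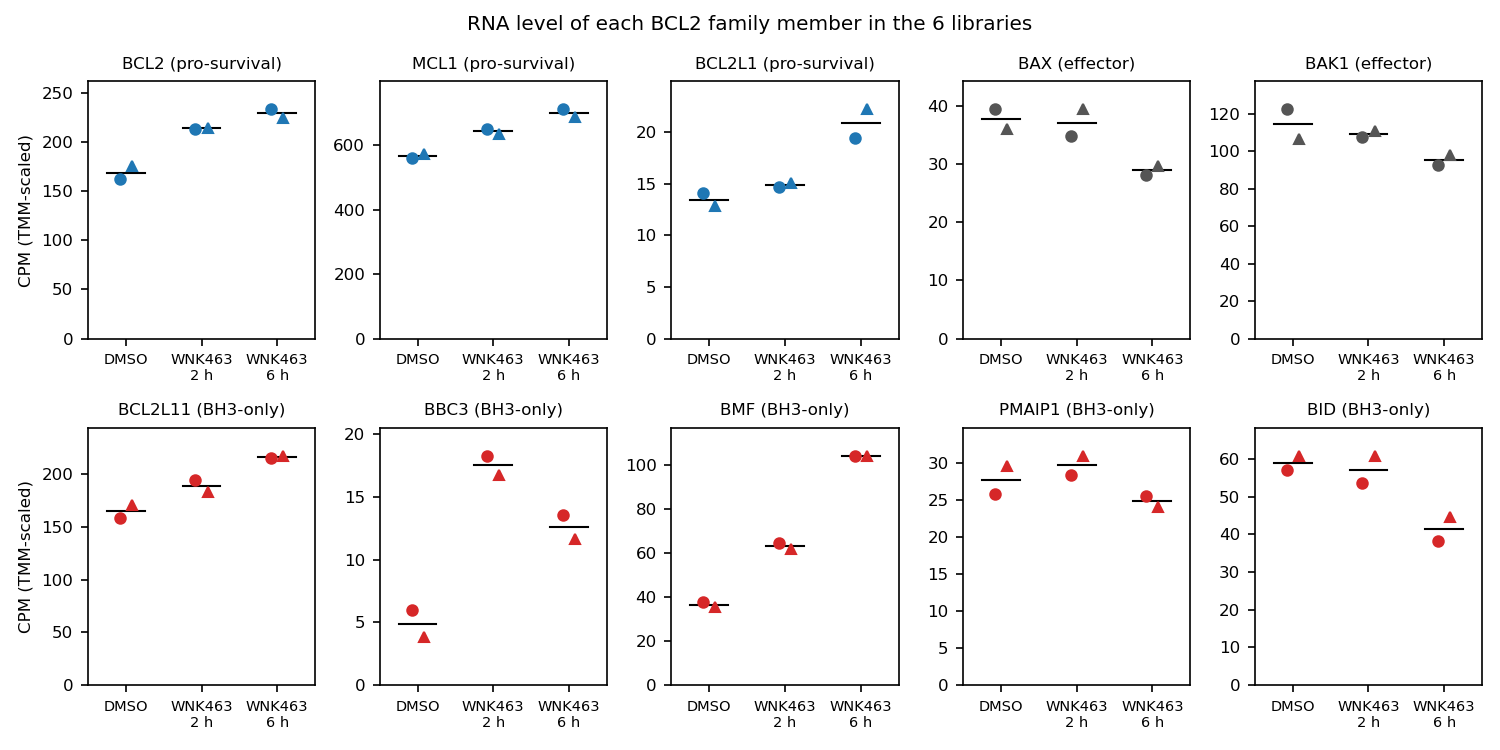
Level of each member in each of the 6 libraries in CPM with library sizes scaled by TMM; each panel is 1 gene, circles are the first and triangles the second library of a group, and lines are group means. BMF climbs from 35.3 to 37.7 with DMSO to 104 at 6 h, BBC3 peaks at 2 h, and BID and BAX lie lower at 6 h than in either other group.

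The first question was how the family's RNA stood 2 h after the inhibitor was given. BBC3 and BMF, BH3-only genes, rose most, by 3.60-fold and 1.73-fold. Pro-survival BCL2 and MCL1 and the BH3-only gene BCL2L11 rose by 1.27-fold, 1.13-fold and 1.15-fold. BCL2L1, PMAIP1, BID, BAX and BAK1 did not pass the test. Thus 5 of 10 members were called higher and 0 lower, at an adjusted p under 0.05 in edgeR's quasi-likelihood test, where 17.0% of all tested genes were called, 8.68% higher and 8.32% lower. The median log2 change was 0.16 for the members and -0.005 for all tested genes.

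At 6 h, all 3 pro-survival genes rose, BMF, BBC3 and BCL2L11 rose among the BH3-only genes, BID fell, and both effectors fell. The counts were 6 members higher, 3 lower and 1 not called (PMAIP1), in a comparison in which 36.6% of all tested genes were called, 18.0% higher and 18.6% lower. The median log2 change of the members was 0.35, against -0.005 for all tested genes. Both comparisons use the same DMSO libraries and are therefore not independent, so their values are set side by side. The plot of log2 changes shows both times for each member.

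**Figure D2:**
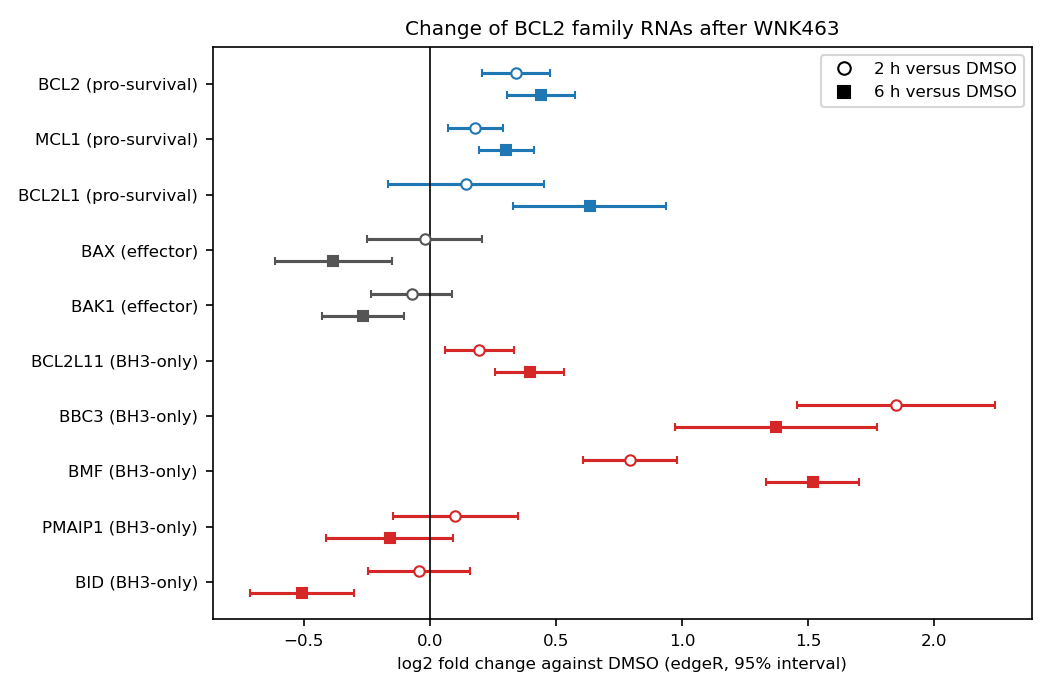
Log2 fold change of each member against DMSO at 2 h and at 6 h (horizontal axis), from edgeR with 95% intervals as bars; open circles are 2 h, filled squares 6 h, and colours mark the classes. BBC3 is farthest right at 2 h (1.85), BMF at 6 h (1.52), and BID, BAX and BAK1 lie left of 0 at 6 h.

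Among the pro-survival genes, BCL2, the target of venetoclax, measured 163 and 175 CPM with DMSO, 213 and 215 CPM at 2 h, and 234 and 225 CPM at 6 h. Both treated groups lay above both DMSO libraries. The log2 change was 0.34 ± 0.07 (SE) at 2 h, with a 95% interval of 0.21 to 0.47 and an adjusted p of 0.000165 (edgeR), and 0.44 ± 0.07 at 6 h, adjusted p 5.85e-07. MCL1, a short-lived protein that binds BIM, NOXA and BAK1, measured 562 and 574 CPM with DMSO, 652 and 635 CPM at 2 h, and 713 and 689 CPM at 6 h. The 3 groups did not overlap and were ordered by time. Its log2 change was 0.18 ± 0.05 at 2 h (edgeR adjusted p 0.0142) and 0.30 ± 0.05 at 6 h (adjusted p 1.01e-05). The 2 h call of MCL1 was lost without the first 2 h library (log2 change 0.16, adjusted p 0.182) and without the second (0.20, adjusted p 0.0893).

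BCL2L1, which encodes BCL-xL, measured 14.1 and 12.9 CPM with DMSO, 14.7 and 15.0 CPM at 2 h, and 19.5 and 22.2 CPM at 6 h. Libraries at 6 h stood above all 4 others, while those at 2 h lay just above the higher DMSO library. The log2 change was 0.14 at 2 h, with an interval of -0.17 to 0.45 that includes 0 (edgeR adjusted p 0.594), and 0.63 ± 0.15 at 6 h (fold 1.55, interval 0.33 to 0.94, adjusted p 0.000711). The antisense gene ABALON had 3 and 3 counts with DMSO, 1 and 5 at 2 h, and 22 and 8 at 6 h. Because counting ignored strand, reads of the 2 genes from shared exons cannot be assigned, and the part of ABALON in the BCL2L1 change was not tested.

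Among the BH3-only genes, BMF, a sensitiser that is known to bind dynein light chain at the cytoskeleton, measured 37.7 and 35.3 CPM with DMSO, 64.8 and 61.7 CPM at 2 h, and 104 and 104 CPM at 6 h. The groups were clear of each other and the 6 h replicates nearly coincided. The log2 change was 0.79 ± 0.09 at 2 h (interval 0.61 to 0.98, edgeR adjusted p 6.66e-09) and 1.52 ± 0.09 at 6 h (fold 2.86, interval 1.33 to 1.70, adjusted p 4.78e-18). BBC3, whose protein PUMA binds all the main pro-survival proteins, had 108 and 81 counts with DMSO, 335 and 392 at 2 h, and 263 and 229 at 6 h. These are 5.98 and 3.83 CPM, then 18.3 and 16.7 CPM, then 13.6 and 11.7 CPM. The DMSO libraries differed from each other more, relative to their mean, than those of any other member, but stayed below every treated library. The log2 change was 1.85 ± 0.20 at 2 h (interval 1.45 to 2.24, adjusted p 4.47e-10) and 1.37 ± 0.20 at 6 h (fold 2.59, adjusted p 2.23e-07).

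BCL2L11, whose protein BIM activates BAX and BAK1 directly, measured 159 and 171 CPM with DMSO, 194 and 184 CPM at 2 h, and 216 and 218 CPM at 6 h. Groups did not overlap. The log2 change was 0.20 ± 0.07 at 2 h (edgeR adjusted p 0.0389) and 0.40 ± 0.07 at 6 h (fold 1.31, adjusted p 6.19e-06). The 2 h call was lost when single libraries were left out: adjusted p was 0.0959 without the first DMSO library, 0.338 and 0.105 without the first and second 2 h library, and 0.0820 and 0.0807 without the first and second 6 h library. It was also lost with library sizes alone as the scaling (0.0864), without the filter (0.0501) and with only the groups compared (0.0723). Of its exonic length, 10.9% is shared with the antisense gene MIR4435-2HG, which had 710 to 982 counts per library, so reads there cannot be assigned.

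BID, which caspase-8 cleaves to link death receptors with mitochondria, measured 57.1 and 61.0 CPM with DMSO, 53.7 and 60.8 CPM at 2 h, and 38.4 and 44.6 CPM at 6 h. The 2 h libraries overlapped the DMSO range and both 6 h libraries lay below all others. Its log2 change was -0.04 at 2 h (interval -0.24 to 0.16, edgeR adjusted p 0.831) and -0.51 ± 0.10 at 6 h (fold 0.703, adjusted p 7.87e-05). PMAIP1, whose protein NOXA binds MCL1, measured 25.9 and 29.6 CPM with DMSO, 28.4 and 31.0 CPM at 2 h, and 25.6 and 24.1 CPM at 6 h. The 2 h libraries overlapped the DMSO range and the 6 h libraries lay just below it. With log2 changes of 0.10 (interval -0.15 to 0.35, adjusted p 0.649) and -0.16 (interval -0.41 to 0.09, adjusted p 0.339), PMAIP1 was the only member that passed the threshold in none of the comparisons.

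Of the effectors, BAX, which is mostly cytosolic until activated, measured 39.4 and 36.1 CPM with DMSO, 34.8 and 39.5 CPM at 2 h, and 28.1 and 29.7 CPM at 6 h. BAK1, resident in the outer membrane, measured 123 and 107 CPM, then 108 and 111 CPM, then 92.8 and 98.1 CPM. For both genes the 2 h libraries overlapped the DMSO libraries and the 6 h libraries lay below them. BAX changed by -0.02 on the log2 scale at 2 h (interval -0.25 to 0.21, edgeR adjusted p 0.938) and by -0.38 ± 0.12 at 6 h (fold 0.767, adjusted p 0.00710). BAK1 changed by -0.07 at 2 h (interval -0.23 to 0.09, adjusted p 0.606) and by -0.27 ± 0.08 at 6 h (fold 0.832, adjusted p 0.00752). These 6 h calls were lost without some libraries, with the sign kept. Without the first 6 h library BAX gave -0.34 (adjusted p 0.0923) and BAK1 -0.22 (adjusted p 0.136), and without the first DMSO library BAK1 gave -0.16 (adjusted p 0.100), a smaller fall by more than 1.5 times.

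Read by class, pro-survival genes gave 2 higher of 3 at 2 h and 3 of 3 at 6 h, with median log2 changes of 0.18 and 0.44. BH3-only genes gave 3 higher of 5 at 2 h, and 3 higher and 1 lower at 6 h, with medians of 0.20 and 0.40. Effectors gave 0 called at 2 h and 2 lower of 2 at 6 h, with medians of -0.05 and -0.32. Among all tested genes, 8.68% were called higher and 8.32% lower at 2 h, and 18.0% higher and 18.6% lower at 6 h. The median log2 change of all tested genes was -0.005 in both comparisons. With 2 to 5 genes in a class these counts describe the named genes and no test of the classes was made.

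Summed levels were compared within libraries as ratios, which do not depend on scaling between libraries. The pro-survival sum was 535 and 543 TPM with DMSO, 607 and 595 TPM at 2 h, and 710 and 681 TPM at 6 h, of which MCL1 made up 85.9% to 87.7%. The BH3-only sum was 209 and 219 TPM, then 254 and 255 TPM, then 287 and 285 TPM. Both sums were ordered by time with no overlap between groups. The effector sum was 258 and 225 TPM, then 219 and 231 TPM, then 199 and 208 TPM, so the 2 h libraries overlapped DMSO and the 6 h libraries did not.

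The BH3-only to pro-survival ratio was 0.391 and 0.404 with DMSO, 0.419 and 0.429 at 2 h, and 0.403 and 0.418 at 6 h. Both 2 h libraries were above DMSO, and the 6 h libraries overlapped the DMSO range at its upper end. The order of the times turned when CPM were summed in place of TPM, with mean ratios of 0.390 with DMSO, 0.409 at 2 h and 0.421 at 6 h. By contrast the effector to pro-survival ratio was 0.482 and 0.415 with DMSO, 0.361 and 0.389 at 2 h, and 0.280 and 0.305 at 6 h, falling without overlap from group to group. Within the effectors, the BAX to BAK1 ratio stayed between 0.259 and 0.305 in all 6 libraries. RNA sums treat the members as equal and say nothing of protein amounts.

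The make-up of the BH3-only sum moved more than its total relative to the pro-survival sum. BMF supplied 12.1% and 10.7% with DMSO, 16.5% and 15.7% at 2 h, and 25.2% and 25.0% at 6 h. BID went the other way, from 22.4% and 22.6% to 16.8% and 19.0% and then 11.3% and 13.1%. PMAIP1 supplied 20.6% and 22.3%, then 18.1% and 19.7%, then 15.4% and 14.4%. BCL2L11 remained the largest share in every library, between 38.3% and 42.8%, and BBC3 went from 3.28% and 1.98% to 7.99% and 7.30% and then 5.58% and 4.78%.

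**Figure D3:**
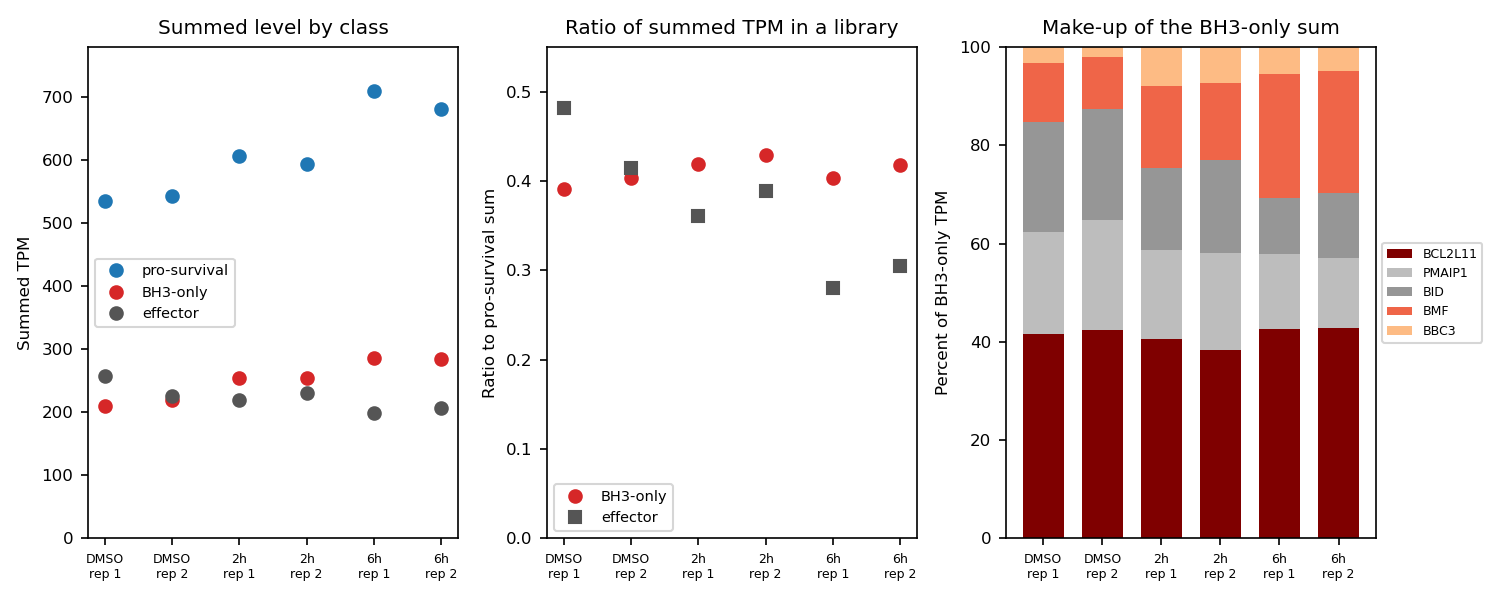
Left, summed TPM of the pro-survival, BH3-only and effector members in each library; centre, ratio of the BH3-only and effector sums to the pro-survival sum in each library; right, percent of the BH3-only sum from each gene. The effector ratio drops from 0.415 to 0.482 with DMSO to 0.280 to 0.305 at 6 h, and the BMF share climbs to 25.0% to 25.2%.

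The second question was whether the members differed between the treatment times. Without a DMSO group for each time, hours in culture and hours of exposure cannot be told apart here either. Between 6 h and 2 h, 3 members were called higher and 3 lower, where 24.3% of all tested genes were called (11.1% higher, 13.1% lower). BMF rose further, by 0.72 ± 0.09 on the log2 scale (fold 1.65, edgeR adjusted p 1.31e-08), and this call held under every alternative tried. BCL2L1 and BCL2L11 were higher at 6 h by 0.49 ± 0.15 (adjusted p 0.0115) and 0.20 ± 0.07 (adjusted p 0.0243). BBC3 was lower at 6 h than at 2 h by a log2 change of -0.47 ± 0.18 (adjusted p 0.0444), BID by -0.47 ± 0.10 (adjusted p 0.000447) and BAX by -0.36 ± 0.12 (adjusted p 0.0156). BCL2 (0.10, interval -0.03 to 0.23, adjusted p 0.30), MCL1 (0.12, interval 0.02 to 0.23, adjusted p 0.0877), PMAIP1 (-0.26, interval -0.51 to -0.01, adjusted p 0.124) and BAK1 (-0.19, interval -0.35 to -0.03, adjusted p 0.0747) did not pass.

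Apart from that of BMF, these calls between the times were lost when some libraries were left out, which also leaves fewer samples for the test. The log2 changes kept their sign throughout, at 0.39 to 0.58 for BCL2L1, 0.16 to 0.24 for BCL2L11, -0.59 to -0.37 for BBC3, -0.58 to -0.36 for BID and -0.45 to -0.27 for BAX over the 6 libraries left out in turn. BCL2L1 lost its call without the first or second 2 h library (adjusted p 0.0748 and 0.0583) or the second 6 h library (0.189). BCL2L11 lost it without any 1 of the 4 treated libraries (0.0754, 0.306, 0.150 and 0.190, in the order 2 h then 6 h), as did BBC3 (0.197, 0.0688, 0.0699 and 0.296). BBC3 also lost it with DESeq2 (0.0966), robust dispersions (0.0508), no filter (0.0690) and library size alone (0.0899). BID lost it without the first 6 h library (0.0561). BAX lost it without the second 2 h library (0.251), either 6 h library (0.156 and 0.0622) or with library size alone (0.0521).

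Other genes of the cell death pathway were counted from lists by function, to place the members among their partners. The lists, and up to 4 genes from each with the smallest adjusted p, are described by counts beside the 17.0% called at 2 h and 36.6% at 6 h among all tested genes. In the plot of these lists each gene is a point. Of 40 calls against DMSO among the genes taken by that rule, 18 held in all 17 alternatives, 22 were lost in at least 1, and 0 reversed. Apart from stricter thresholds and left-out libraries, DESeq2 ended the 6 h calls of JUN (adjusted p 0.0768), BIRC2 (0.0710) and USP9X (0.0647). Voom ended those of BCL2L15 at 2 h (0.0715) and HRK at 2 h and 6 h (0.0533 and 0.0524). A fit of only the groups compared ended the 2 h calls of BCL2L15 (0.0679), BIRC2 (0.0518) and HUWE1 (0.0540), library size alone that of HUWE1 at 2 h (0.0628), and no filter that of BIRC2 at 6 h (0.0581).

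**Figure D4:**
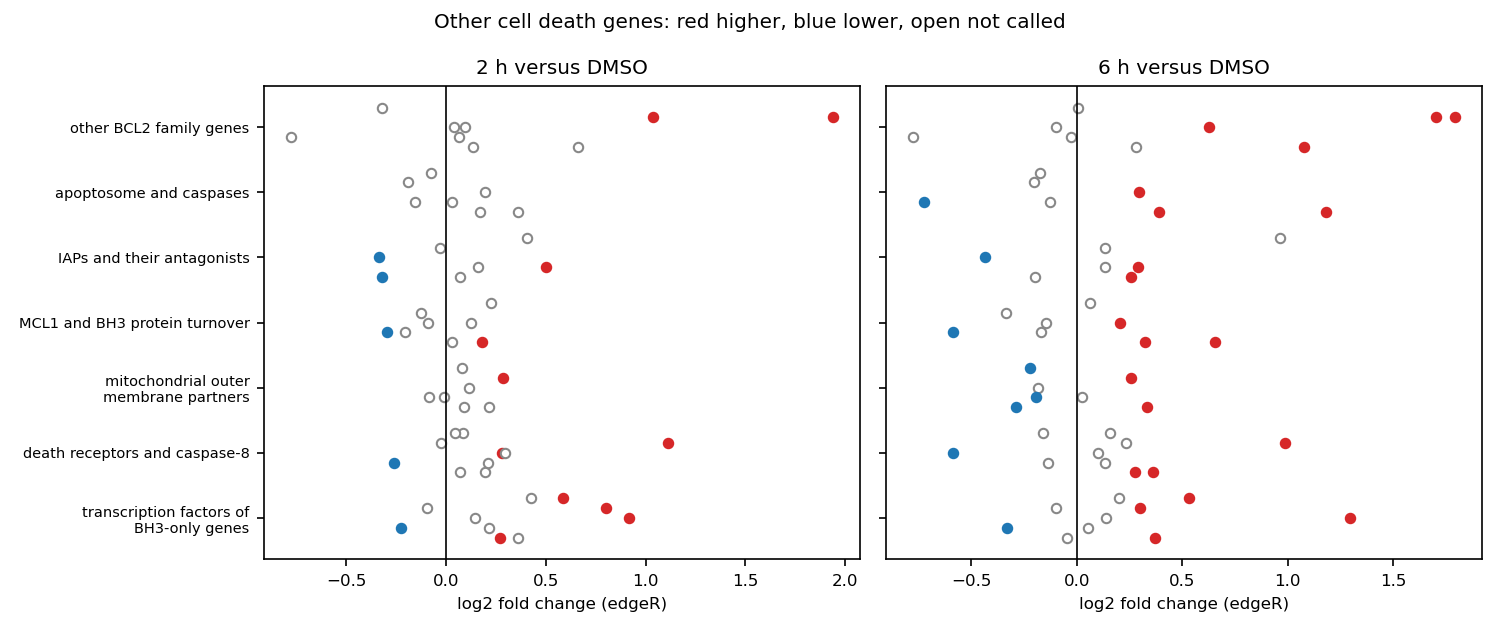
Log2 fold change against DMSO (horizontal axis, edgeR) of every tested gene in the other cell death lists, at 2 h (left) and 6 h (right); red points were called higher, blue lower, open not called. More points are filled at 6 h than at 2 h, CASP9 (1.18) and CYCS (-0.72) stand apart in the apoptosome list at 6 h, and TNFRSF1A stands right at both times.

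Of 13 other BCL2 family genes 9 were tested, with 2 higher and 0 lower at 2 h and 4 higher and 0 lower at 6 h. BCL2A1, BCL2L10, BCL2L14 and BOK had too few counts. BCL2L15, a little-studied family gene, averaged 1.62 CPM with DMSO, 3.33 at 2 h and 5.60 at 6 h (log2 changes 1.04 and 1.79, edgeR adjusted p 0.0255 and 1.88e-05). BNIP3L, an outer-membrane receptor for mitophagy, changed by 0.04 at 2 h (adjusted p 0.868) and rose by 0.63 at 6 h (adjusted p 2.65e-05). The BH3-only gene HRK was low, with 8 and 11 counts with DMSO, 44 and 32 at 2 h and 29 and 33 at 6 h. Its log2 changes were 1.94 and 1.70 (adjusted p 0.0200 and 0.0247). BIK, another BH3-only gene, gave 0.66 at 2 h (adjusted p 0.178) and 1.08 at 6 h (adjusted p 0.00732).

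Leaving out single libraries ended several of these calls. BCL2L15 at 2 h gave an adjusted p of 0.125 without the second DMSO library and 0.0892 without the first 2 h library. HRK at 2 h gave 0.0718 without the first DMSO library and 0.204 without the first 2 h library. At 6 h HRK gave 0.0865 and 0.0563 without the first and second DMSO library and 0.0579 and 0.100 without the first and second 6 h library, and BIK gave 0.109 without the second DMSO and 0.287 (log2 change 0.59) without the second 6 h library. The 6 h calls of BCL2L15 and BNIP3L held throughout.

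Downstream of the pore, the 7 apoptosome and caspase genes gave 0 called at 2 h and 3 higher and 1 lower at 6 h. CYCS, which encodes the cytochrome c that leaves mitochondria through the BAX and BAK1 pore, measured 545 and 545 CPM with DMSO, 502 and 478 CPM at 2 h, and 331 and 329 CPM at 6 h. The 6 h libraries were far below the rest. Its log2 change was -0.15 at 2 h (edgeR adjusted p 0.0513) and -0.72 ± 0.06 at 6 h (adjusted p 2.28e-14). The 2 h fall of CYCS lay near the threshold. It passed in a minority of the alternatives, among them DESeq2 (adjusted p 0.0418), voom (0.0204) and robust dispersions (0.0433). CASP9, the initiator caspase activated on the apoptosome, measured 7.31 and 7.70 CPM with DMSO, 10.3 and 9.05 CPM at 2 h, and 18.3 and 15.8 CPM at 6 h. It gave 0.36 at 2 h (adjusted p 0.191) and rose by 1.18 ± 0.18 at 6 h (adjusted p 5.80e-07).

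APAF1, the apoptosome scaffold, rose by 0.39 at 6 h (edgeR adjusted p 0.0141), and lost the call without the first DMSO library (0.0803) or the first 6 h library (log2 change 0.24, adjusted p 0.330).

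Of 7 inhibitors of apoptosis and their antagonists, 1 was higher and 2 lower at 2 h, and 2 were higher and 1 lower at 6 h. BIRC3, which encodes cIAP2, averaged 224 CPM with DMSO, 317 CPM at 2 h and 247 CPM at 6 h (log2 changes 0.50 and 0.14, edgeR adjusted p 7.89e-08 and 0.0974). BIRC5, which encodes survivin, fell at both times, by 0.34 and 0.44 on the log2 scale (adjusted p 0.000999 and 8.14e-06). BIRC2, which encodes cIAP1, was lower at 2 h (-0.32, adjusted p 0.0244) and higher at 6 h (0.25, adjusted p 0.0423). At 2 h it lost the call without the second DMSO library (0.206) or the first 2 h library (0.327), and at 6 h without any single library other than the second DMSO library (adjusted p from 0.0502 to 0.275). XIAP, which inhibits caspases directly, rose by 0.29 at 6 h (adjusted p 0.0273), a call lost without the first DMSO library (log2 change 0.17, adjusted p 0.269) or the first or second 6 h library (0.0794 and 0.179).

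Of 8 genes for turnover or anchoring of MCL1 and BH3 proteins, 1 was higher and 1 lower at 2 h, and 3 were higher and 1 lower at 6 h. DYNLL1, a dynein light chain to which BMF and BIM bind, fell from 205 CPM with DMSO to 167 CPM at 2 h and 137 CPM at 6 h (log2 changes -0.30 and -0.59, edgeR adjusted p 0.00127 and 1.87e-09). HUWE1, a ubiquitin ligase for MCL1, rose by 0.18 and 0.32 (adjusted p 0.0215 and 9.11e-06). BTRC, a ligase subunit known to act on MCL1 and BIM, gave 0.03 at 2 h (adjusted p 0.925) and rose by 0.65 at 6 h (adjusted p 5.73e-05). USP9X, a deubiquitinase of MCL1, rose by 0.21 at 6 h (adjusted p 0.0264).

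The 6 h calls of DYNLL1, HUWE1 and BTRC held in every alternative. At 2 h DYNLL1 gave an adjusted p of 0.0565 without the first 2 h library, and HUWE1 gave 0.238 and 0.0973 without the first and second 2 h library and 0.0551 and 0.0542 without the first and second 6 h library. USP9X at 6 h gave 0.558 without the first DMSO library (log2 change 0.05) and 0.192 and 0.0651 without the first and second 6 h library.

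Of 7 mitochondrial membrane partners, 1 was higher at 2 h, and 2 were higher and 3 lower at 6 h. VDAC2, an outer-membrane channel that holds BAK1 and BAX, fell by 0.29 at 6 h and VDAC1 by 0.22 (edgeR adjusted p 0.000996 and 0.00188), and neither passed at 2 h. DNM1L, the fission GTPase, rose by 0.33 at 6 h (adjusted p 0.00150) and OPA1, which shapes the inner membrane, by 0.29 and 0.26 at 2 h and 6 h (adjusted p 0.00258 and 0.00288). Without the second 6 h library the falls gave adjusted p 0.0566 for VDAC2 and 0.0632 for VDAC1. Without the first DMSO library DNM1L and OPA1 at 6 h gave 0.17 and 0.14 on the log2 scale (adjusted p 0.0685 and 0.0617).

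On the extrinsic side, the 10 death receptor and caspase-8 genes gave 2 higher and 1 lower at 2 h, and 3 higher and 1 lower at 6 h. TNFRSF1A, the main receptor for TNF, measured 24.3 and 25.0 CPM with DMSO, 52.3 and 54.0 CPM at 2 h, and 45.3 and 52.2 CPM at 6 h. All treated libraries lay far above DMSO, with log2 changes of 1.11 ± 0.11 and 0.99 ± 0.11 (edgeR adjusted p 7.26e-11 and 5.02e-10). TNFRSF10B, a TRAIL receptor, averaged 15.9 CPM with DMSO, 19.5 CPM at 2 h and 10.6 CPM at 6 h, a log2 change of -0.59 at 6 h (adjusted p 0.00309) that lost its call without the first 6 h library (-0.43, adjusted p 0.116). CASP10 rose by 0.36 at 6 h (adjusted p 0.00569), a call lost without the first DMSO library (0.0563) or the second 6 h library (0.0827). CFLAR, which restrains caspase-8, rose by 0.28 at 2 h (adjusted p 0.00869) but not without the second 2 h library (0.232).

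Of 11 transcription factors known to act on BH3-only genes, 10 were tested, with 4 higher and 1 lower at each time. DDIT3, which encodes CHOP, had 58 and 81 counts with DMSO, 129 and 148 at 2 h, and 172 and 167 at 6 h (log2 changes 0.92 and 1.30, edgeR adjusted p 0.00500 and 1.92e-05). Its exons share 39.6% of their length with other genes, where unstranded reads cannot be assigned. ATF4, which acts upstream of CHOP, fell by 0.23 and 0.33 on the log2 scale (adjusted p 0.00967 and 4.68e-05). FOXO3, a forkhead factor with BCL2L11, BBC3 and BMF among its known targets, rose by 0.27 and 0.37 (adjusted p 0.00300 and 1.59e-05). JUN rose by 0.80 at 2 h (adjusted p 6.28e-07) and by 0.30 at 6 h (adjusted p 0.0374).

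The calls of DDIT3 at both times, JUN at 2 h and FOXO3 and ATF4 at 6 h held in every alternative. At 2 h FOXO3 gave an adjusted p of 0.0679 without the first 2 h library, and ATF4 gave 0.128 and 0.0887 without the first and second 2 h library. JUN at 6 h gave 0.11 on the log2 scale (adjusted p 0.559) without the second DMSO library, and 0.0582 and 0.246 without the first and second 6 h library. RNA levels of these factors do not measure their activity.

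Finally, the genes nearest in pattern to the 3 members with the largest changes were found among 10620 other tested genes of at least 4 CPM, by root mean square distance of log2 CPM over the 6 libraries after centring on DMSO. BMF lay nearest to APOBEC3G, a cytidine deaminase (distance 0.0576), and CCR2, a chemokine receptor (0.107). Their log2 changes were 0.88 and 1.51 for APOBEC3G and 0.88 and 1.45 for CCR2 at 2 h and 6 h, beside 0.79 and 1.52 for BMF. BBC3 lay nearest to the pseudogene HSD3BP5 (0.194) and to MXD1, a partner of MAX (0.210), with changes of 1.78 and 1.41 and of 1.96 and 1.41. BCL2L1 lay nearest to PDLIM7 (0.0474, changes 0.10 and 0.65) and GTPBP2 (0.0517, changes 0.18 and 0.66). The closeness is a description over 6 libraries.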

How the data were processed

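Bulk RNA-seq of JJN3 cells was analysed in 6 libraries, 2 each of a DMSO control, a 2 h and a 6 h exposure to WNK463. Per the file headers, the deposited counts are whole fragments per gene of GENCODE 34, counted by the authors with featureCounts 2.0.0 on hg38, without regard to strand, at a minimum mapping quality of 20. Per the submitters' processing notes, reads were trimmed with Trimmomatic and aligned with STAR, whose versions those notes do not carry. The header shows no option for fragments that overlap exons of 2 genes, which by the tool's default count for neither. For ANK2, 2 continuation lines were joined back to their record.

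Counts were fitted in R 4.3.3 with edgeR 4.0.16 (glmQLFit and glmQLFTest) as 1 model of the 6 libraries, with 3 group means. Scaling was by TMM (0.977 to 1.025), and filterByExpr kept 15548 genes. Calls required an adjusted p (Benjamini-Hochberg, over all genes kept) under 0.05. The SE was derived from the F statistic, and intervals are at the 95% level. The fit had a common dispersion of 0.00597 (biological coefficient of variation, 7.72%), with 3 residual degrees of freedom with 42.8 prior ones. CPM use TMM-scaled library sizes, except marker sums, which use totals. TPM were computed from the counts and the exonic length in the table. Floors of 3 counts cover counting error only. The 2 libraries of each group varied beyond counting noise, with a chi-square of 8.41, 4.15 and 3.57 per degree of freedom for DMSO, 2 h and 6 h.

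The 10 members and the gene lists were chosen with earlier results of these data known. Named genes were all members, up to 4 genes per other list with the smallest adjusted p against DMSO, and the 2 genes nearest in pattern to each of the 3 members that changed most. A result that the rule selects is not reported here. Alternatives were DESeq2 1.42.0, limma 3.58.1 voom, other scalings, filters, dispersions and thresholds, only the groups compared, a replicate block, and leaving out each library. The test was tried on simulated counts for 6 h versus DMSO, in which 200 of 15548 genes were changed, fewer than were called here. It recovered 23.88% of the changes of 0.3 on the log2 scale, 70.15% of those of 0.5 and 96.97% of those of 1. Of 134 calls 7 were false. A small change that did not pass is therefore not shown to be absent. Motifs were searched in RefSeq promoter windows (GRCh38.p14) with Python 3.11.15, and figures drawn with matplotlib 3.10.9. No genome sequence or protein sequence was used here.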

Additional observations from a re-analysis of the deposited data

Results flagged for a closer look

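For the genes below the change from DMSO differed between the treatment times, by the direct test of 6 h against 2 h (edgeR, adjusted over all 15548 genes, of which 24.3% were called). Each value is the log2 change from 2 h to 6 h with its adjusted p, and the causes were not tested.

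Among the members, BMF (0.72, 1.31e-08), BCL2L1 (0.49, 0.0115) and BCL2L11 (0.20, 0.0243) were higher at 6 h. BID (-0.47, 0.000447), BBC3 (-0.47, 0.0444) and BAX (-0.36, 0.0156) were lower. BMF and BBC3, the members that rose most at 2 h, thus moved in opposite directions afterwards, but the call of BBC3 is lost under 9 of 17 alternatives (highest adjusted p 0.296, without the second 6 h library), while that of BMF held in all 17.

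Among partner genes, CASP9 (0.82, 0.000294), BTRC (0.62, 0.000183), BNIP3L (0.59, 0.000126) and BIRC2 (0.57, 2.17e-05) were higher at 6 h than at 2 h. CYCS (-0.57, 8.82e-11), TNFRSF10B (-0.88, 2.81e-05), JUN (-0.50, 0.000605), VDAC2 (-0.38, 4.63e-05), BIRC3 (-0.36, 2.20e-05), VDAC1 (-0.30, 6.32e-05) and DYNLL1 (-0.29, 0.00128) were lower. BIRC2 is the only one of the named genes called lower at 2 h and higher at 6 h against DMSO, though both of those calls are lost without single libraries. The DYNLL1 difference is lost without the first 6 h library (adjusted p 0.0737).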

How the results depend on the processing

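Of 30 member tests 20 were called, 11 of these in all 17 alternatives and 9 lost in at least 1; 2 others (MCL1 and BAK1 between the times) became called in some, and 0 changed direction. The calls of BCL2, BBC3 and BMF against DMSO, and the 6 h calls of MCL1, BCL2L1, BCL2L11 and BID, held throughout. At an adjusted p under 0.01, 1560 genes were called at 2 h (804 higher, 756 lower) with 3 members, all higher. Between the times 1103 genes were then higher, with 2 members called (1 higher, 1 lower). With library size alone 1 member was lower between the times, and the median log2 change of all genes was 0.079 under that scaling, against 0.014. With each library left out in turn, genes called at 2 h ranged from 1527 (without the second 2 h library) to 2911, with 776 to 1589 higher and 751 to 1322 lower, and members from 3 to 5, all higher. At 6 h they ranged from 4021 to 5600, members from 7 to 9, and lower members from 1 (without the first 6 h library) to 3. Between the times they ranged from 2288 (without the first 6 h library) to 4661, with 1022 to 2171 higher and 1262 to 2557 lower, members from 2 to 8, 1 to 4 of them higher and 0 to 4 lower. In CPM in place of TPM, an alternative chosen after seeing the data, the BH3-only to pro-survival ratio was 0.390 with DMSO, 0.409 at 2 h and 0.421 at 6 h, so that 6 h was above 2 h, the reverse of the order in TPM (0.424 and 0.411, after 0.397 with DMSO). The effector ratio was 0.204, 0.168 and 0.131 for DMSO, 2 h and 6 h, since gene length then weights the sums, and its order was the same. Deviations from the group means were almost uncorrelated between same-numbered libraries of different groups (correlations of -0.00540, -0.0381 and -0.0205). These correlations cannot show whether the samples were paired. With the replicate number as a block, 2658, 5686 and 3807 genes and 5, 9 and 6 members were called at 2 h, 6 h and between the times. Protein, isoform and dose questions could not be addressed.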
